A study of Homo sapiens with 18 samples.

Results

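The regions described here were selected on where peaks had been called: they are stretches of the genome that carried H3K27ac in every library of untreated and maltonis-treated NB4 cells and carried no H3K4me3 in any library. H3K27ac peaks of the 6 lists, 1 list per library, were merged on chromosomes 1 to 22 where they overlapped by at least 1 bp. This gave 36228 merged regions, of which 19504 held a peak in all 6 lists. Of these, 4472 were free of H3K4me3 peaks from all 6 H3K4me3 lists. The 4424 of them narrower than 30000 bp are called distal regions below, and the 48 wider ones were left out. Distal is a name for the absence of called H3K4me3 only, since the position of genes was not used here.

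NB4 is an established human cell line derived from acute promyelocytic leukemia (APL). Cells were either left untreated or cultured with maltonis, a synthetic maltol derivative, at 10 µM for 24 h. Chromatin of both conditions was immunoselected for H3K4me3, H3K9me3 and H3K27ac, with 3 libraries per mark and condition, 18 in all. Both conditions come from the same line, and these libraries hold no other cell type, dose or time. The study describes the libraries of each condition as biological replicates, and the p-values measure the spread between them. All coordinates are on build hg19 and are counted from 1.

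H3K27ac is an acetylation of histone H3 that is found at active promoters and active enhancers. H3K4me3 is a methylation of the same histone that is concentrated at active promoters. Acetylated chromatin without H3K4me3 is therefore commonly taken as a candidate enhancer, a stretch of DNA that can act on a promoter at a distance and often does so in a cell type-specific way. H3K9me3 is the mark of repressed heterochromatin.

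The distal regions were limited in width and kept clear of H3K4me3 by the selection, so their sizes and distances are descriptive. Their merged width ranged from 1000 to 29800 bp, with a median of 6200 bp and an interquartile range of 4400 to 9600 bp. The nearest H3K4me3 peak of any list lay at a median distance of 15145 bp. It was closer than 5000 bp for 669 regions and farther than 100000 bp for 212. On single chromosomes, distal regions made up between 12.8% (chromosome 19) and 26.6% (chromosome 7) of the regions shared by all 6 H3K27ac lists. At the limits of the selection, the widest members were chr4:2709001-2738800 and chr7:148856401-148886200, both 29800 bp wide. The narrowest region left out for its width was chr20:10506201-10536200, at 30000 bp. The member closest to H3K4me3, chr12:76351401-76355800, lay 6 bp from a peak.

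After maltonis, the distal regions held fewer H3K27ac reads and were called over a shorter length. Reads are those the peak caller counted inside its enriched islands, so that a value refers to the stretch called in that library. The distal regions held 1038527, 1133560 and 1118877 reads in the untreated libraries and 791468, 896335 and 810487 in the maltonis libraries. These were 5.43%, 5.67% and 5.66% of all reads in autosomal H3K27ac peaks without treatment and 4.48%, 4.39% and 4.28% after it. The groups did not overlap. The share was 5.58% ± 0.134 (SD, n = 3) in untreated cells and 4.39% ± 0.0997 (SD, n = 3) after maltonis. An exact two-sided permutation test over the 20 assignments of the libraries gave p = 0.1, the smallest value that 3 against 3 libraries allow. The reads in all autosomal H3K27ac peaks ranged from 17659587 to 20412339 per library and overlapped between the groups. These values are relative to the reads of each library, so loss of the mark and a shift of reads elsewhere cannot be told apart. By mass spectrometry, the study reported an increase of H3K27ac in bulk histones after maltonis. Because each library is a bulk culture, a change in the number of cells with the mark and in its amount per cell cannot be told apart.

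The mean called length per distal region was 5300, 5731 and 5674 bp in the untreated libraries. It was 4365, 4196 and 3850 bp in the maltonis libraries. All maltonis libraries lay below all untreated ones, at 4137 ± 262 bp against 5568 ± 234 bp (SD, n = 3 each), a change of -25.7% (exact permutation p = 0.1). Summed over the regions, 24.6 ± 1.04 Mb were called without treatment and 18.3 ± 1.16 Mb after it. Reads per called kb, by contrast, overlapped between the conditions. They were 44.3, 44.7 and 44.6 in the untreated libraries and 41.0, 48.3 and 47.6 after maltonis (exact permutation p = 0.8). The first maltonis library lay below, and the other two above, every untreated library. The lowest island score admitted to a list was 36.2 to 39.9 in untreated and 27.1 to 32.7 in maltonis libraries. With 1 common lowest score in all 6 lists, the difference in mean length was -1764 bp (exact permutation p = 0.1), against -1431 bp as deposited. That score, 39.9, was the lowest of an untreated list and was chosen after seeing the data. It removed islands mostly from the maltonis lists, and regions left without an island counted as 0 bp. The cut thus works towards a larger difference, and cannot show how far the unequal scores shaped the shortening.

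**Figure D1:**
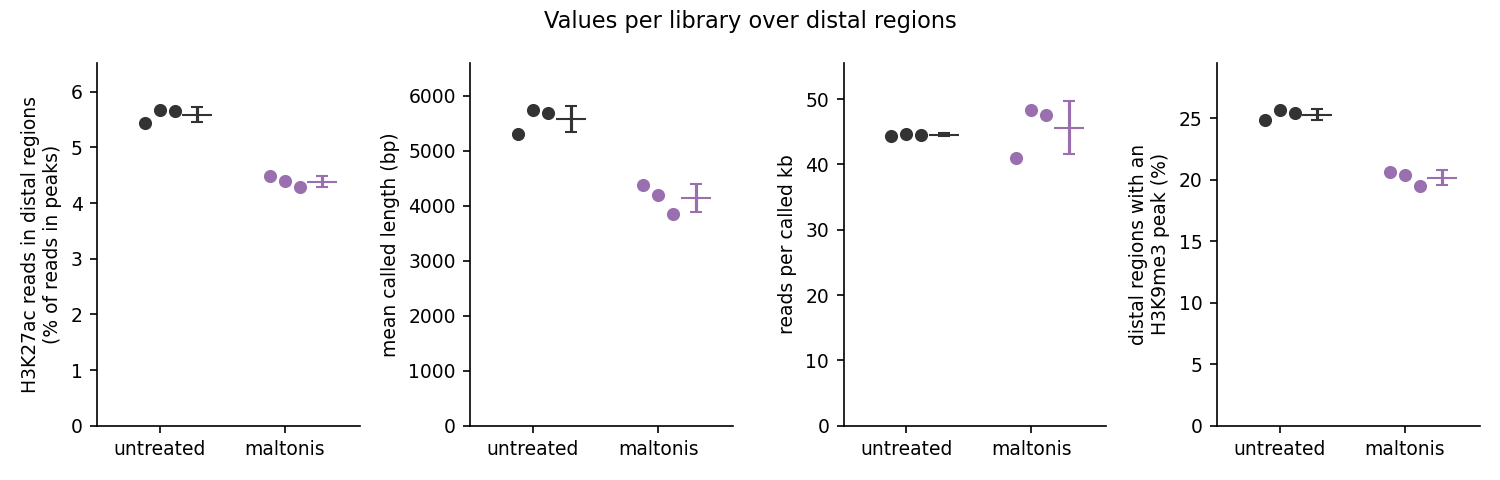
Values of each H3K27ac library (first 3 panels) and each H3K9me3 library (last panel) over the 4424 distal regions, with untreated libraries in black and maltonis libraries in purple. Points are libraries, the horizontal lines are means and the bars are 1 SD (n = 3). The share of reads, the called length and the percentage of regions with H3K9me3 lay lower in all maltonis libraries, while reads per called kb overlapped.

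Taken over all distal regions, uncalled length was greater on both sides and between islands after maltonis. These uncalled stretches and the called length together make up the merged width, so the values below restate the shortening. Left and right follow the coordinates only, and whether single regions were shortened on both sides was not tested. The distance from the outer edge of a merged region to the first called base had a median of 467 ± 115 bp on the left side in untreated libraries and 1067 ± 115 bp after maltonis (SD, n = 3 each, no overlap, exact permutation p = 0.1). The medians on the right side were the same. Uncalled stretches between islands of 1 region took a mean of 239 ± 32.6 bp per region without treatment and 399 ± 62.4 bp after it (exact permutation p = 0.1). At the centre of the merged regions, 91.6% ± 1.35 of them were called in untreated cells and 80.5% ± 2.73 after maltonis (SD, n = 3 each). The gap between conditions was widest 1400 bp to the left of the centre, where 73.7% ± 2.75 and 54.3% ± 3.55 were called. The lowest untreated library was above the highest maltonis library at all 51 positions measured within 5000 bp of the centre.

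**Figure D2:**
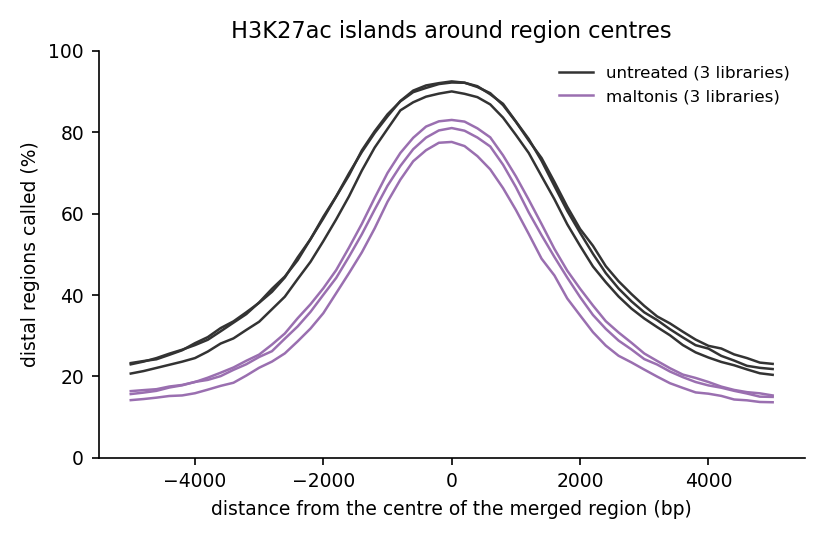
Percentage of the 4424 distal regions called as H3K27ac (y axis) against the distance from the centre of the merged region in bp (x axis), 1 line per library. The 3 untreated lines (black) lie above the 3 maltonis lines (purple) at every distance, by 11.0 percentage points at the centre and 19.4 at -1400 bp.

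Most distal regions were a single island. A single island was called in all 6 lists for 3006 regions. The mean number of islands per region was 1.16 ± 0.0164 in untreated cells and 1.202 ± 0.0291 after maltonis (SD, n = 3 each), with overlapping groups (exact permutation p = 0.2). In shared regions under 30000 bp that overlapped H3K4me3, it was 1.203 ± 0.0221 and 1.267 ± 0.0375 (SD, n = 3 each), also with overlapping groups (exact permutation p = 0.2). A single island in each untreated list that was split in each maltonis list was found at 46 of the 4424 distal regions, and the reverse at 17. The same counts over all shared regions are not given here, so splitting is not read as a trait of distal regions. With 1 common lowest score, islands per distal region differed by -0.12, at 1.145 in untreated cells and 1.025 after maltonis (exact permutation p = 0.1). That cut removed islands mostly from the maltonis lists, and regions left without an island counted as 0. The turned order therefore does not measure how often regions were split.

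Region by region, 1224 of 4424 distal regions (27.7%) fell in reads after maltonis by edgeR's quasi-likelihood test, and 244 (5.52%) rose. A call required a false discovery rate (FDR) not above 0.01 together with a log2 fold change of 0.58 or more, up or down. Over all 19504 shared regions, 19.5% were called lower and 8.05% higher. All 4424 distal regions were tested, with 30 to 2947 reads per region and library. The median log2 fold change was -0.36, with an interquartile range of -0.77 to 0.04, and 72.5% of the distal regions were below 0. The median over all shared regions was -0.02. Without a model, the reads divided by all reads in peaks of the library were lower in all 3 maltonis libraries than in all 3 untreated libraries at 1896 distal regions (42.9%) and higher at 495 (11.2%). Over all shared regions these shares were 35.6% and 36%.

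Called length moved with these reads. At 1421 distal regions (32.1%) all maltonis libraries were called over a shorter stretch than all untreated libraries, and at 100 (2.26%) over a longer one. The corresponding shares of all shared regions were 28.4% and 3.85%. Among the 1224 regions with fewer reads, 987 were of the shorter kind, and the median log2 ratio of called length was -0.92. Of these 1224 regions, 420 had fewer reads per called kb in all maltonis than in all untreated libraries, and 49 had more. Among the 244 regions with more reads, 83 were called over a longer stretch in all maltonis libraries. Of these 244, 157 had more reads per called kb in all maltonis libraries, and 2 had fewer. Over all 4424 distal regions, 694 (15.69%) had more and 619 (13.99%) fewer reads per called kb by this measure. Of all shared regions, 25.4% had more and 12.7% fewer. Across the 4424 regions, the log2 fold change of reads and the log2 ratio of called length had a Pearson's r of 0.88 and a Spearman's rho of 0.87. This is a description over regions that share libraries, and the 2 quantities share the same islands.

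**Figure D3:**
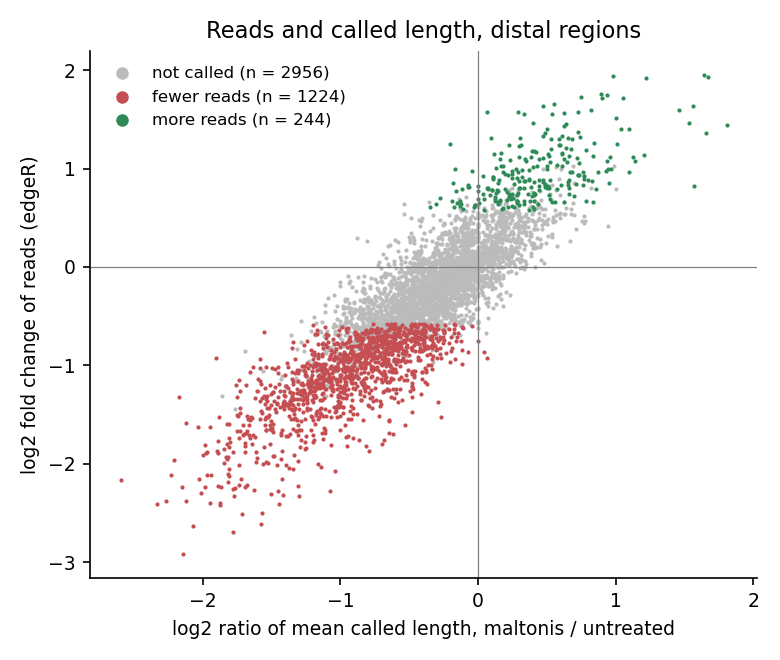
Log2 fold change of H3K27ac reads by edgeR (y axis) against the log2 ratio of the mean called length, maltonis over untreated (x axis), 1 point per distal region. Regions with fewer reads (red, n = 1224) lie almost entirely at negative length ratios, and regions with more reads (green, n = 244) mostly at positive ones.

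When the called length entered the model as an offset, so that reads per called length were compared, most calls were lost. Then 84 distal regions (1.90%) were lower and 142 (3.21%) higher, against 2.28% and 5.77% of all shared regions. The median log2 fold change was 0.06 in distal regions, and 0.16 over all shared regions. Hence this scaling moved the median of all regions, and the distal regions lay below it. With the normalisation factors computed on reads per called kb, a choice made after seeing the data, the median of all shared regions was -0.00 and that of the distal regions -0.09. The split of the calls then turned, with 179 distal regions (4.05%) lower and 64 (1.45%) higher, against 4.55% and 2.21% of all shared regions. Each library decided part of the offset calls. Leaving out any 1 of the 6 libraries left 15 to 38 regions lower and 45 to 85 higher. Both models called the same direction for 81 regions with fewer and 82 with more reads, opposite directions for 5, and neither called 2898.

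**Figure D4:**
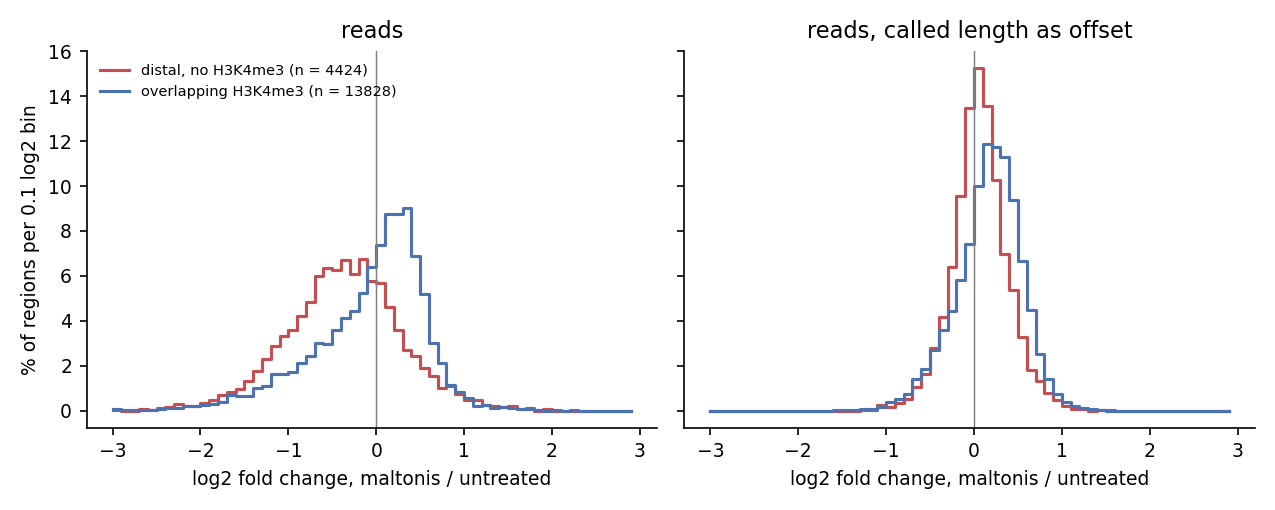
Distribution of the log2 fold change of H3K27ac reads, maltonis over untreated (x axis, bins of 0.1), as a percentage of regions per bin (y axis), for 4424 distal regions (red) and 13828 shared regions that overlap H3K4me3 (blue). For reads as counted (left) the distal regions had a median of -0.36 and the others of 0.07. With the called length as offset (right) the medians were 0.06 and 0.19.

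The distal regions were also set against the shared H3K27ac regions under 30000 bp that overlapped H3K4me3 in at least 1 list (n = 13828). Relative to those regions, the distal regions were lower after maltonis. The H3K4me3-overlapping regions themselves held a larger share of the reads in peaks after it. Their share was 59.5% ± 0.222 without treatment and 62.6% ± 0.151 after maltonis (SD, n = 3 each, no overlap, exact permutation p = 0.1). The log2 ratio of distal reads to reads in those regions was -3.41 ± 0.0401 in untreated cells and -3.84 ± 0.0319 after maltonis (SD, n = 3 each). The corresponding ratio of mean called length moved from -0.52 ± 0.0293 to -0.73 ± 0.0337, and that of reads per called kb from -1.25 ± 0.0109 to -1.46 ± 0.00363. None of these 3 ratios overlapped between conditions (exact permutation p = 0.1 each). The H3K4me3-overlapping regions were shortened too, from 7973 ± 178 bp to 6863 ± 278 bp, and their reads per called kb went from 106 ± 0.313 to 125 ± 11.2 (SD, n = 3 each, exact permutation p = 0.1).

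The distal regions were close to those regions in which H3K4me3 was called in some lists only, a class formed after the first results were seen. Regions with H3K4me3 in 1 to 5 of the 6 lists (n = 4342) had a median log2 fold change of -0.37, and 35.8% of them were called lower and 8.06% higher. Regions with H3K4me3 in all 6 lists (n = 9486) had a median of 0.17, with 9.56% lower and 9.79% higher. Mean called length was -25.4% after maltonis in the first of these classes and -9.37% in the second, beside -25.7% in the distal regions. In log2 terms, the mean length of distal regions relative to the class with 1 to 5 lists was -0.37 ± 0.0297 in untreated cells and -0.38 ± 0.0220 after maltonis (SD, n = 3 each). These groups overlapped (exact permutation p = 0.8). Relative to the class with all 6 lists it was -0.58 ± 0.0291 and -0.87 ± 0.0377, without overlap (exact permutation p = 0.1). Reads per called kb relative to the class with 1 to 5 lists still differed, at -0.61 ± 0.000668 and -0.65 ± 0.00475, without overlap (exact permutation p = 0.1).

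The classes also differed in reads. The median region held a mean of 168 reads in the distal class, 285 with H3K4me3 in 1 to 5 lists and 860 with H3K4me3 in all 6. Among regions with 255 to 2637 mean reads, the range of the top 25% of distal regions, 34.6% of the distal regions were called lower. So were 36.8% of those with 1 to 5 lists and 7.62% of those with all 6. This range is wide and held 7898 of the 9486 regions with all 6 lists, so reads were not matched within it. At 168 to 255 mean reads the shares were closer, at 32.1%, 42.6% and 27.9%, with median log2 fold changes of -0.44, -0.50 and -0.14. At 122.5 to 168 mean reads they were 27.6%, 36.4% and 24.5%, with medians of -0.38, -0.43 and -0.17. At 44 to 122.5 mean reads, the range of the lowest 25%, the shares were 16.2%, 21.3% and 19.0%.

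**Figure D5:**
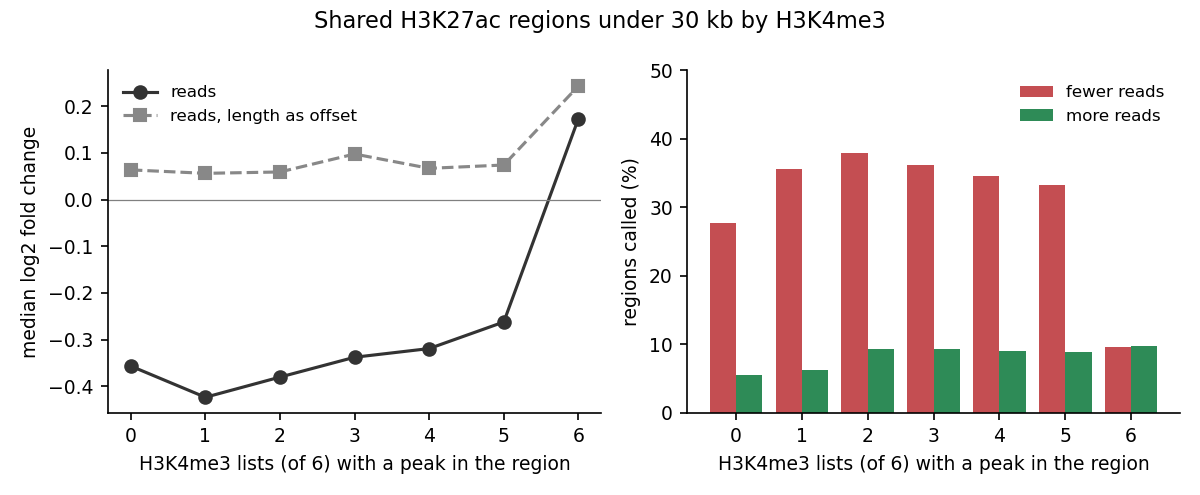
Shared H3K27ac regions under 30000 bp by the number of H3K4me3 lists, of 6, with a peak in the region (x axis; 0 are the distal regions). The left panel shows the median log2 fold change of reads, as counted (circles) and with the called length as offset (squares), and the right panel the percentage of regions called with fewer (red) or more (green) reads. Classes 0 to 5 had medians from -0.42 to -0.26 as counted, and class 6 had 0.17.

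Among the distal regions, the medians were lowest in the wider ones. In 4 classes of equal size from the narrowest to the widest, the median log2 fold change was -0.23, -0.32, -0.46 and -0.47. Of these classes 20.2%, 25.4%, 33.7% and 31.4% were called lower. With the called length as offset, their medians were 0.07, 0.06, 0.06 and 0.07. Merged width is set by the same islands as the called length, so the order by width is not independent of the shortening. The 669 regions within 5000 bp of an H3K4me3 peak had a median of -0.28, with 24.5% lower. The 212 regions beyond 100000 bp had a median of -0.54, with 44.3% lower and 5.19% higher. With the called length as offset, the medians of these classes were 0.07 and -0.03. The difference between distance classes was not tested, and the far regions held a median of 155 reads against 172 in the near ones. The median was below 0 on each of the 22 chromosomes, from -0.21 on chromosome 8 to -0.53 on chromosome 11.

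Of 704 pairs of neighbouring distal regions within 20000 bp, both were below 0 in 400, both above 0 in 80, and 224 pairs were of opposite sign, beside 72.5% of all distal regions below 0. Whether neighbours were alike beyond that share was not tested. Both members were called lower in 76 pairs and higher in 7, and 10 pairs were called in opposite directions. The longest runs of such neighbours had 6 members, at chr7:104672401-104779000 (median log2 fold change -0.45, 1 region called lower) and chr9:7015601-7119200 (median -0.40, none called). A run of 5 at chr4:130464001-130551200 had a median of 0.36 with none called. These runs were picked for their length after the values were seen.

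H3K9me3, a mark that the selection did not use, was found at fewer distal regions after maltonis. It overlapped 24.8%, 25.6% and 25.4% of them in the untreated libraries and 20.6%, 20.4% and 19.5% in the maltonis libraries. The groups did not overlap, at 25.3% ± 0.420 and 20.2% ± 0.581 (SD, n = 3 each, exact permutation p = 0.1). Regions with H3K4me3 in 1 to 5 lists were also overlapped less often, at 31.8% ± 0.435 and 27.8% ± 0.719, whereas those with H3K4me3 in all 6 lists went from 21.3% ± 0.365 to 23.1% ± 0.478 (SD, n = 3 each, no overlap, exact permutation p = 0.1 for both). Over both of these classes together the values were 24.6% ± 0.330 and 24.6% ± 0.552 (exact permutation p = 1). The log2 ratio of the distal percentage to that of the class with 1 to 5 lists moved from -0.33 ± 0.00442 to -0.46 ± 0.00509, and to that of the class with all 6 lists from 0.25 ± 0.0253 to -0.20 ± 0.0147, both without overlap (exact permutation p = 0.1 each). The H3K9me3 lists themselves were shorter after maltonis, with 29554 ± 278 autosomal peaks against 34431 ± 684 (SD, n = 3 each). The lowest H3K9me3 island score admitted was 28.8 to 28.9 in untreated libraries and 33.6, 32.7 and 28.8 in maltonis libraries. With 1 common lowest score, chosen after seeing the data, the difference at distal regions was -3.86 percentage points, against -5.12 as deposited (exact permutation p = 0.1 for both). It was -3.56 points where at least 50% of the shorter interval had to overlap (exact permutation p = 0.1).

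Most distal regions (2848) had no H3K9me3 peak in any list, and 556 had one in all 6. A peak in all untreated lists and in no maltonis list was found at 50 distal regions (1.13%, beside 0.933% of all shared regions). The reverse was found at 2 (0.0452%, beside 0.938%), whereas 161 of the 13828 H3K4me3-overlapping regions (1.16%) were of that kind. H3K9me3 was called in more untreated than maltonis lists at 655 of the 4424 distal regions and in fewer at 215. Among the 13828 H3K4me3-overlapping regions these counts were 1687 and 1636. Of the 50 regions with H3K9me3 in all untreated lists and no maltonis list, 21 were called lower in H3K27ac (42%, beside 27.7% of all distal regions). Another 2 were called higher (4%, beside 5.52%), and the median log2 fold change was -0.56. Among the 1224 distal regions with fewer H3K27ac reads, H3K9me3 overlapped 28.4% ± 0.536 in untreated cells and 21.2% ± 0.472 after maltonis. Among the 244 with more reads it overlapped 29.1% ± 1.08 and 24.7% ± 0.237, and among the 2956 uncalled regions 23.7% ± 0.489 and 19.4% ± 0.830 (SD, n = 3 each, exact permutation p = 0.1 for each class). The percentage with H3K9me3 was thus lower after maltonis whatever the H3K27ac call.

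Single regions with the clearest changes were chosen among the 81 and 82 called in the same direction by both models, the 8 with the highest and the 8 with the lowest log2 fold change after the called length was taken into account. Groups that did not overlap in reads relative to all reads in peaks were a condition for choosing these 16, not a finding about them. The strongest rise by this measure was at chr4:140896201-140901200, 1412 bp from the nearest H3K4me3 peak. It held 102, 175 and 172 reads in untreated and 362, 321 and 346 in maltonis libraries. It was called over 4000 ± 1249 bp without treatment and 3467 ± 1301 bp after maltonis (SD, n = 3 each). The ranking with the length offset favours regions whose called length did not move with the reads. The log2 fold change of reads was 1.25 ± 0.198 (SE, edgeR FDR = 0.000348), and 1.53 ± 0.190 with the length offset (edgeR FDR = 0.00111). At chr16:17263601-17269000, which lay 127301 bp from H3K4me3, reads were 187, 203 and 222 without treatment and 560, 601 and 610 after it. Its log2 fold change was 1.58 ± 0.0922 (SE, edgeR FDR = 5.86e-07).

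The region chr22:25264001-25271400 had 181, 181 and 172 reads in untreated and 524, 548 and 542 in maltonis libraries, and was also called over a longer stretch, 5267 ± 503 bp after maltonis against 3800 ± 200 bp. At chr11:129910401-129915600 reads were 98, 75 and 77 without treatment and 237, 241 and 243 after it, over similar lengths. The remaining regions that rose, chr12:8307401-8311600, chr10:72499401-72506800, chr8:20043001-20047800 and chr19:10912201-10917400, had log2 fold changes of 1.31, 1.00, 1.55 and 1.65. H3K9me3 was called at chr19:10912201-10917400 in all 6 lists.

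The strongest fall after the length offset was at chr7:155160601-155163600, 1396 bp from H3K4me3. It held 319, 300 and 315 reads in untreated and 113, 102 and 99 in maltonis libraries, over 2733 ± 306 bp and 2267 ± 643 bp (SD, n = 3 each). The called lengths overlapped between the groups, which the ranking with the length offset favours. The log2 fold change was -1.52 ± 0.147 (SE, edgeR FDR = 1.35e-05), and -1.23 ± 0.144 with the length offset (edgeR FDR = 0.000904). At chr15:38986601-38992000, in chromatin 129863 bp from H3K4me3, reads were 476, 479 and 459 without treatment and 69, 128 and 88 after it, the lowest log2 fold change of the 16 regions at -2.28 ± 0.169 (SE, edgeR FDR = 2.51e-06). This region was shortened from 5200 ± 200 bp to 2467 ± 1172 bp (SD, n = 3 each).

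Larger regions fell as well. At chr1:37283001-37294000 reads were 1288, 1410 and 1288 in untreated and 358, 404 and 378 in maltonis libraries (log2 fold change -1.76 ± 0.0530, SE, edgeR FDR = 1.39e-08). At chr1:229382601-229392400 they were 944, 961 and 1003 against 254, 271 and 245, and the single island of each untreated library was called as 2 islands in each maltonis library. The remaining regions that fell were chr3:126791001-126795200 (log2 fold change -1.80), chr1:233024601-233029200 (-1.70), chr13:87222601-87226800 (-1.69) and chr11:76336001-76342600 (-1.37). The region on chromosome 13 was the most remote of the 16, 549535 bp from the nearest H3K4me3 peak.

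The distal regions with the most reads moved in different directions. The richest, chr1:229156401-229175400, held 2476, 2577 and 2557 reads in untreated and 2472, 2947 and 2795 in maltonis libraries. Relative to all reads in peaks, all 3 maltonis libraries were higher. The log2 fold change of 0.15 ± 0.0318 (SE, edgeR FDR = 0.002) did not reach the size needed for a call, while its H3K9me3 was called in all untreated lists and in no maltonis list. At chr9:3897801-3919000 reads were 2028, 2173 and 2199 without treatment and 875, 1043 and 1087 after it (log2 fold change -1.05 ± 0.0565, SE, edgeR FDR = 3.60e-07). At chr19:6566601-6585400 they were 1130, 1160 and 1092 against 1880, 2111 and 1986 (log2 fold change 0.86 ± 0.0379, SE, edgeR FDR = 1.03e-07). Neither call remained with the length offset, where the log2 fold changes were -0.54 and 0.39. At chr3:30667201-30694000 reads were 1878, 1879 and 1997 in untreated and 1230, 1383 and 1467 in maltonis libraries. This difference was clear of overlap, but its log2 fold change of -0.45 did not reach the size needed for a call. The richest uncalled regions also included chr2:224321001-224335800, at a log2 fold change of 0.27, and chr6:138221201-138238200, at 0.02, both with H3K9me3 in all 6 lists.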

How the data were processed

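ChIP-seq peak lists of NB4 cells were used, 1 per library (18 libraries, 3 marks). Per the labels, the submitters' processing notes name build hg19 and the tools BWA, SAMtools, MACS2 and SICER; the study's methods name epic2 for H3K9me3 and H3K27ac. Versions and settings of these tools, and input controls, are not given in the sources used here. For H3K4me3 the authors called peaks with MACS2, and the deposited score, fold enrichment and −log10 p and q values were not used beyond position. H3K27ac and H3K9me3 lists carry the authors' read count per called island, not normalised, and a deposited island score that ranks islands within a list.

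Island ends were moved by 1 bp, since they name the last base counted from 0. Counts were summed per merged region. All 19504 regions shared by the 6 H3K27ac lists were fitted with edgeR 4.0.16 (R 4.3.3, quasi-likelihood test, TMM, Benjamini-Hochberg adjustment), and standard errors came from the F statistic. DESeq2 1.42.0 was an alternative. Single values of each library were tested by exact two-sided permutation. A region overlapped H3K9me3 if they shared at least 1 bp. Intervals between replicates are SDs, and depth is the reads inside peaks.

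Named regions were the 8 highest and 8 lowest members by the log2 fold change with the length offset, among those called alike by both models with non-overlapping reads relative to all reads in peaks, plus the 4 members and the 4 uncalled members with the most reads. Others are said to have been chosen after their values were seen. The members, lists and tests were chosen with earlier results of these data known. The classes by H3K4me3 lists, their comparison by range of reads, and H3K9me3 by H3K27ac call were added after the first results were seen. Genes near the regions, lists of myeloid, interferon and MYC pathway genes, and motif searches were foreseen but not analysed here, since no genome or annotation of hg19 was used. Markers of the cell type were not analysed here for the same reason.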

Additional observations from a re-analysis of the deposited data

How the results depend on the processing

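Of the 138 alternative values computed, 116 kept the direction and the side of the threshold, or stayed within the replicate spread. The calls depended on the called length. With it as an offset, 1.90% of distal regions were lower and 3.21% higher. In regions of similar length in all libraries 1.89% were lower, which is 1 of 53 and too few to read. With normalisation on reads per called kb (chosen after seeing the data) the shares were 4.05% and 1.45%. DESeq2 called 31.2% lower and 6.33% higher. Leaving out 1 library gave 22.9% to 25.9% lower and 4.50% to 5.09% higher, and with the offset 0.339% to 0.859% lower and 1.02% to 1.92% higher, fewer libraries being fitted.

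Leaving out 1 library moved the difference in reads per called kb between -0.24 and 3.41, negative without the second maltonis replicate, and that in islands per region between 0.0281 and 0.0571. It ranged from -1565 to -1288 bp for mean and from -1333 to -1067 bp for median called length, from -1.28 to -1.15 percentage points for the share of reads, and from -5.36 to -4.80 points for H3K9me3. The log2 ratios to H3K4me3-overlapping regions ranged from -0.45 to -0.40 (reads), -0.23 to -0.19 (length), -0.22 to -0.21 (reads per called kb) and -0.33 to -0.32 (H3K9me3). Islands per region differed by -0.0347 with the strongest 75% of peaks (exact permutation p = 0.4) and by -0.12 with a common lowest score (chosen after seeing the data). In both settings regions left without an island counted as 0, so these differences do not measure splitting. The cause was not tested.

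Samples with the same replicate number did not deviate together (correlations over regions of 0.00405, 0.0309 and 0.00226). With the replicate number as a block, 26.8% were lower and 5.04% higher, and 0.949% and 1.88% with block and length offset (chosen after seeing the data). The filter on low counts removed no region. With 3 libraries per condition, no value per library could reach a p below 0.1, and the reads inside islands limit the comparison to what each list called.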
